A study of Mus musculus with 12 samples.

Results

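Goblet cells and their progenitors were studied in BALB/c small intestinal organoids that had been exposed for 4 days to regulatory T (Treg) cells or to cytokines. They were picked out as 496 of 11911 epithelial cells that passed quality filters (4.16%). A cell was a member when the goblet genes Fcgbp, Tff3, Muc2 and Agr2 together held at least 10 of every 10000 unique molecular identifiers (UMIs, each standing for a captured RNA molecule). Members also held fewer than 50 UMIs per 10000 of the Paneth genes Defa17, Defa24, Defa30 and Lyz1 and fewer than 10 of the endocrine genes Chga and Chgb. These measured values chose the members, so the 10 genes of the rule are described without a test.

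The 6 groups, all of wild-type organoids grown with EGF, noggin and R-spondin, were pooled after hashtag labelling. Control organoids had no T cells. In the Treg group, 100000 allogeneic CD25high FoxP3-GFP+ Treg cells per well came, by the study's methods, from spleens of FoxP3-GFP reporter mice. The study's co-culture methods name C57BL/6J as the source of mouse T cells. The Treg cells were activated with IL-2 (30 U/ml) and CD3/CD28 beads below a tilted organoid drop, without direct contact. Further Treg wells received blocking antibody to IFNg, to the IL-10 receptor (IL-10R), or to both, at 10 µg/ml each. The last group had no T cells and received recombinant IFNg (0.25 ng/ml) and IL-10 (10 ng/ml), written rIFNg + rIL-10 below. For an organoid growth experiment with anti-IFNg, the study says that controls without T cells also received IL-2 and the antibody. For the wells sequenced here, the sources used do not state whether control and cytokine wells received IL-2 or beads. Live EpCAM+ cells were sorted, so that immune cells were removed by the gate, and sequenced in 5 libraries from 3 experimental replicates. Organoids hold epithelium only, and each replicate was a separate pool whose libraries contained all 6 groups.

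Goblet cells make and store the gel-forming mucin MUC2 together with its partners and release them as the mucus layer of the gut. They arise in the crypt from progenitors in which Notch signalling is low and the transcription factor ATOH1 is on, and SPDEF then drives their maturation. IFNg acts on epithelium through its receptor and is known for turning on antigen presentation and GTPases of host defence, whereas IL-10 signals through its receptor chains IL10RA and IL10RB to STAT3.

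The promoters shown here belong to the genes with the largest changes under rIFNg + rIL-10, because promoters of IFNg-responsive genes are known to hold the palindrome TTCNNNGAA (the GAS element) and repeats, bound by interferon regulatory factors, whose core is GAAA, any 2 bases and GAAA again (ISRE). Of the 12 genes with the largest rise and the 12 with the largest fall, 7 and 9 were matched in the RefSeq promoter table (GRCm38.p6, 250 bases before to 50 after each gene's start). On both strands, GAS was found in 8.47% and the ISRE core in 3.49% of 27025 promoters, and either in 11.4%. Either was found in 3 of the 7 matched rises (Igtp, Gbp7 and Irgm2) and in 1 of the 9 matched falls (Selenop). Capitals mark the matches, and the ISRE core of Gbp7 lies on the opposite strand. All 3 genes are on the plus strand, at chr11:58199306-58199605 (Igtp), chr3:142530086-142530385 (Gbp7) and chr11:58214727-58215026 (Irgm2). Each codes for an interferon-inducible GTPase.
Igtp: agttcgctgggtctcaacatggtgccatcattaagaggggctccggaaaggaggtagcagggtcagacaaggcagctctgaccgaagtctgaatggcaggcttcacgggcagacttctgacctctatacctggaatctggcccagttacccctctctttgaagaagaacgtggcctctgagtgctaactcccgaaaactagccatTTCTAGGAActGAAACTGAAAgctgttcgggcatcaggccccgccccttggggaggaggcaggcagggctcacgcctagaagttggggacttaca
Gbp7: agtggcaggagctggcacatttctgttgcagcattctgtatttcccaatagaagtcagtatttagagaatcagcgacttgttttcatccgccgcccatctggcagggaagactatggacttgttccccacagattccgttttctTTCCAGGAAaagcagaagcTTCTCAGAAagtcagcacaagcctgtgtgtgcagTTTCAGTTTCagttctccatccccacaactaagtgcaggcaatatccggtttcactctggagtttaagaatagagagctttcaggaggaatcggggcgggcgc
Irgm2: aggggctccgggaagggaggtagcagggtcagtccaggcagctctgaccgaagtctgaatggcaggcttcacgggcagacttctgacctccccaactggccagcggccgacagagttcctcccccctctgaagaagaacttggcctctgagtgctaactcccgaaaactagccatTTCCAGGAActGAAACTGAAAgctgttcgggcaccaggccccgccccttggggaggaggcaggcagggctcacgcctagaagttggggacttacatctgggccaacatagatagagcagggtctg
In Igtp, GAS spans positions -45 to -37 and the ISRE core -34 to -25 from the start of the gene. Irgm2 has the pair with the same spacing, at -75 to -67 and -64 to -55. The letters around the pair are nearly the same in Igtp and Irgm2, so their matches should not be read as independent. Gbp7 has GAS matches at -106 to -98 and -87 to -79 and the ISRE core at -53 to -44. The match is a description of letters and not of binding.

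The members spanned a wide range of goblet identity. Their score, the UMIs of the 4 goblet genes per 10000, had a median of 64.0 (quartiles 24.8 and 155, highest 1774), and Tff3, a trefoil peptide of mucus, was the largest part of it in 457 members. Agr2, a disulfide isomerase needed for MUC2 folding, led in 34, Fcgbp, a mucus-linking protein, in 5 and Muc2 in 0. The median score of the 10874 remaining cells below all 3 limits was 0.565. Members held a median of 38401 UMIs and 5775 genes, against 45134 and 6231 in the remaining cells.

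To compare cells at equal depth, each was thinned to 10000 UMIs. Muc2, which is itself part of the score, was then found in 78.3% of the 129 members with a score of 150 or more and in 12.3% of the 155 with a score of 50 to 150. Among the 212 members with a score below 50 it was found in 0 after thinning, and unthinned it was at 0.661 and 1.42 CPM (counts per 1000000 UMIs) in the ranges of 10 to 20 and 20 to 50, near the 1.02 of the remaining cells, so the goblet label rests on Tff3, Fcgbp and Agr2 in these cells. Spdef, which is outside the rule, was found in 72.1%, 37.4%, 8.77% and 1.02% from the highest to the lowest of the 4 score ranges. The remaining cells had 0.984% for Muc2 and 0.138% for Spdef.

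Atoh1 was found in 63.6% of the highest range and still in 13.3% of the 98 members with a score of 10 to 20, against 0.57% of the remaining cells. Dll1, the Notch ligand shown by secretory progenitors, peaked at 67.1% in the range of 50 to 150 and was at 26.5% in the lowest. Neurog3, which commits progenitors to the endocrine fate, was found in 10.2%, 17.5%, 21.9% and 7.75% from the lowest range to the highest, against 0.138% of the remaining cells. Members therefore included cells with transcripts of endocrine progenitors, most often in the middle ranges. Of 74 members with Neurog3, 50 also had Dll1, 16 had Spdef and 5 had Muc2, while 89 of 120 members with Muc2 had Spdef.

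Crypt and cycling genes ran the other way. Olfm4, a marker of crypt base stem cells, was found in 69.4% of the lowest range and 24.8% of the highest, and Mki67, a marker of dividing cells, in 62.2% and 27.9%. The Notch target Hes1 was found in 45.9% and 25.6%, against 60.2% of the remaining cells. The secretory load moved with the score: 59 genes of the endoplasmic reticulum (ER) and secretory pathway summed to 7930 CPM in the lowest range and 20047 in the highest. Spink4, a small peptide of goblet granules, went from 233 to 22185 CPM. Mature mucus genes were most frequent at the highest scores. Clca1, a mucus-processing protease, was found in 29.5% of the highest range and 1.94% of the range below. Zg16, a lectin of the mucus, was found in 40.3% and 5.16%.

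The threshold of 10 fell in a continuum. The 15 members with a score of 10 to 11 held 843 CPM of Tff3 and 88.7 of Fcgbp, and the 21 cells with 9 to 10, which were not members, held 795 and 67.9. Above the threshold, 431 further cells were removed because they passed the Paneth limit (347) or the endocrine limit (91), with 7 of them counted under both. Lyz1, a rule gene of the Paneth limit, was at 722 CPM in the highest range and 14.5 in the remaining cells, which places low Paneth transcript levels in the members too. Of the remaining cells, 10.1% had Lyz1 and 33.2% had Defa24 after thinning, the background beside which the 27.6% and 41.8% of the lowest score range stand.

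**Figure D1:**
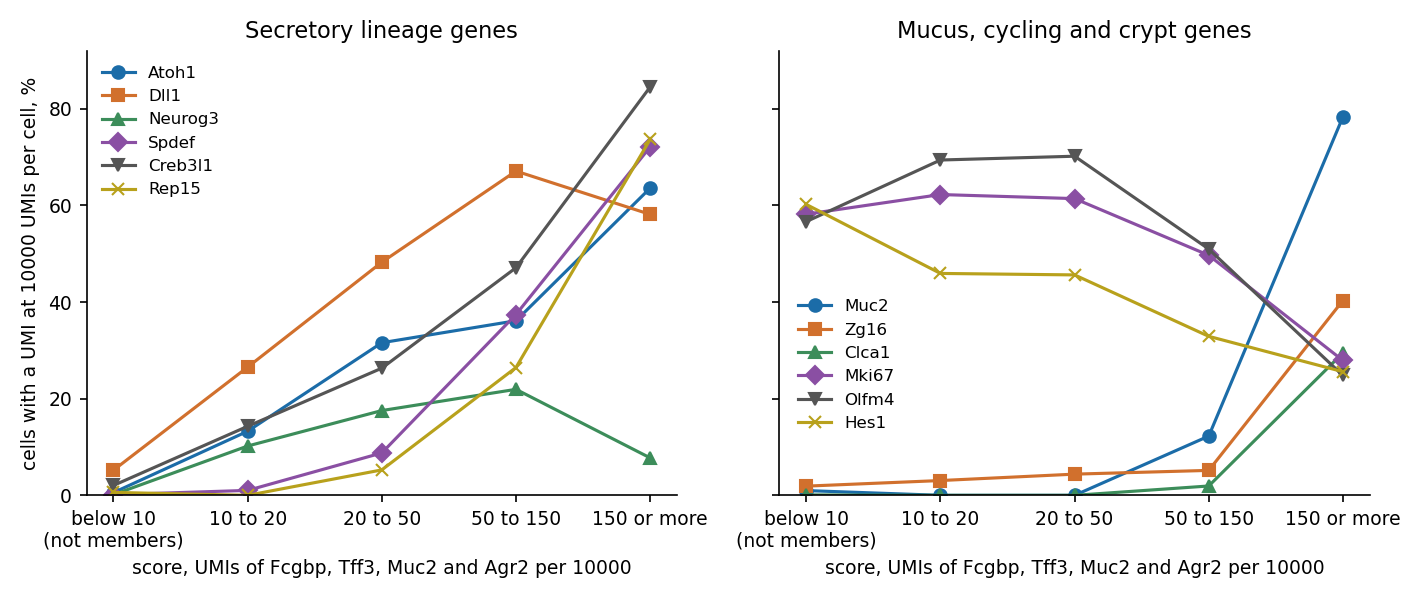
Share of cells with at least 1 UMI of each gene after thinning to 10000 UMIs per cell (vertical axis, %) against the goblet score (horizontal axis; 10874 remaining cells, then members in 4 score ranges of 98, 114, 155 and 129 cells); each line is a gene. Muc2 and Spdef reach 78.3% and 72.1% in the highest range, Neurog3 peaks at 21.9% in the range of 50 to 150, and Mki67 and Olfm4 are lowest in the highest range.

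Summed over the cells of each group and replicate (17 sums of 16 to 55 members), members held more of the secretory regulators than all other cells kept. Among genes outside the rule with at least 50 CPM in members, Clca1 had the largest ratio, 57.2 ± 92.2 CPM (SD, n = 17) against 0.913 in other cells. Neurog3 followed with a ratio of 40.4 and Spdef with 20.4. The other ratios of 14 or more belonged to Zg16 (19.1), the receptor kinase Kit (17.8), Cbfa2t3 (17.5), Rab15 (16.8), Atoh1 (16.0), Dll1 (15.2), Selenom (14.5), the secretory transcription factor Creb3l1 (14.4), Rep15 (14.2) and Klf4 (14.2), a factor of goblet maturation. Insm1, Hepacam2, 5330417C22Rik, the potassium channel Kcnma1, Atp2a3, Rasa4 and Slc12a8 completed the 20 largest of that level, with ratios of 11.6 to 8.80. Atoh1 and Spdef were higher in members in 17 of 17 sums and Neurog3 in 16.

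By list, 56 of 59 ER and secretory genes and 18 of 19 endocrine genes were higher in members than in the remaining cells, and 0 of 20 enterocyte genes were. These counts stand without a share over all genes, and the remaining cells exclude those that passed the endocrine limit. Against all other kept cells, which include them, Neurog3 was higher (ratio 40.4) and Gip, Gcg and Cck were lower (0.015, 0.009 and 0.058). Fabp1, the fatty-acid-binding protein of enterocytes, was at 293 ± 306 CPM in members and 2469 in other cells. Cell-cycle genes summed to 6563 ± 891 CPM in members and 6536 ± 615 in the remaining cells. Of 23 T cell and immune genes, 13 were at 0 in members, and the 23 summed to 5.55 ± 2.59 CPM, with Ctla4 the most abundant at 1.94. Of 12 stromal and endothelial genes, 7 were at 0, and the sum was 0.413 CPM. These are descriptions of cells chosen by their transcripts and carry no test.

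The question of the design was how Treg cells, their IFNg and IL-10 signals, and the cytokines alone shape the epithelium, and the share of goblet members was its simplest measure. Members made up 3.86%, 2.64% and 4.64% of control cells in replicates 1, 2 and 3, and 4.39%, 6.06% and 6.91% with rIFNg + rIL-10. The cytokine share was higher in 3 of 3 replicates, by a mean of 2.08 percentage points, and the ranges of the groups overlapped (permutation p = 0.2, exact and two-sided, n = 3, adjusted p = 0.6 over 6 comparisons). With 3 against 3 the smallest p this exact test can give is 0.1, and the exact sign-flip test within replicates gave p = 0.25, its smallest. Without the Paneth and endocrine limits the difference was 7.97 points. The shares were then 14.9%, 12.7% and 15.0% with the cytokines and 6.21%, 5.28% and 7.25% in control, and did not overlap. The limits fell unequally on the groups. With the cytokines they kept 25 of 85, 55 of 115 and 23 of 50 cells that reached the score minimum. In control they kept 23 of 37, 22 of 44 and 16 of 25. The part of the limits in the member comparisons was not tested.

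Treg co-culture gave 3.55%, 4.73% and 4.52%, a mean 0.55 points above control (exact permutation p = 0.6, n = 3). The Treg share was above control in 1 of 3 replicates (differences -0.31, 2.09 and -0.11 points). With anti-IFNg the shares were 2.45%, 4.10% and 4.42%, with anti-IL-10R 3.47%, 5.77% and 4.47%, and with both antibodies 4.29%, 3.36% and 1.71%. Their mean differences from control were -0.06, 0.85 and -0.59 points, with exact permutation p of 1.0, 0.5 and 0.6 (n = 3 each). These shares were above control in 1, 1 and 2 of 3 replicates. Double blockade differed from Treg alone by -1.15 points (exact permutation p = 0.2, n = 3). By replicate this difference was 0.74, -1.38 and -2.82 points in replicates 1, 2 and 3. Its mean was -2.10 without replicate 1 and -0.32 without replicate 3. The difference for both antibodies against control was 0.57 points without replicate 3, and that for anti-IFNg was 0.62 without replicate 1. Without replicate 2, that for Treg was -0.21 and that for anti-IL-10R -0.28. None of these differences was larger than the spread between replicates.

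**Figure D2:**
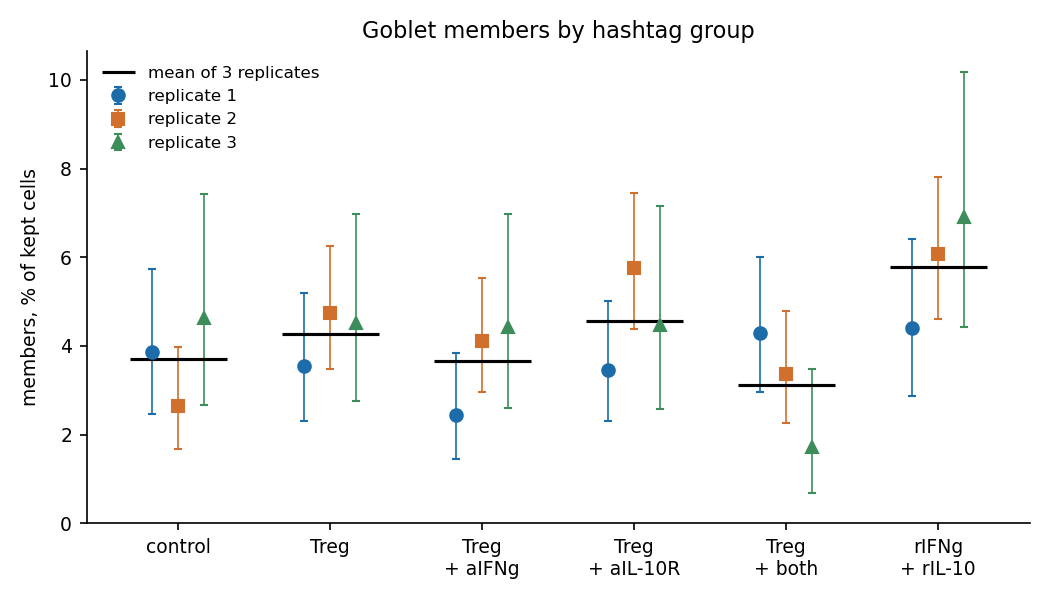
Goblet members as a percent of kept cells (vertical axis) in the 6 hashtag groups (horizontal axis); points are replicates with exact 95% Clopper-Pearson intervals that cover counting error only, and black lines are means of 3 replicates. The 3 points of rIFNg + rIL-10 lie at 4.39% to 6.91% and those of the control at 2.64% to 4.64%.

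The members of the groups also differed in where they lay along the score. With rIFNg + rIL-10, 72.0%, 65.5% and 65.2% of members had a score of 50 or more, against 47.8%, 36.4% and 43.8% in control. The median score was 107 ± 38.1 and 40.0 ± 8.17 (SD, n = 3). The Treg groups lay between, with a mean of 58.8% with Treg, 57.9% with anti-IFNg, 48.2% with anti-IL-10R and 57.1% with both antibodies. Since the score chose the members, these shares are descriptions.

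The UMIs of the members were compared as sums per group and replicate, with edgeR's quasi-likelihood test across 9433 genes and Benjamini-Hochberg adjustment. With rIFNg + rIL-10, 183 genes rose (1.94% of those tested) and 111 fell (1.18%) against control. For 1478 genes (15.7%) the values of the groups did not overlap. The median change of all genes was 0.00 on the log2 scale. The counts run over all genes fitted and include 2 genes of the rule, from which nothing is read. Without replicate 3, 76 rose and 42 fell, without replicate 1, 108 rose and 127 fell, and without the Paneth and endocrine limits 329 rose and 332 fell.

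Genes of antigen presentation by MHC class II, which hands peptides to helper T cells, were among the 12 largest rises. Cd74, the invariant chain that guides class II molecules, was at 0, 5.76 and 3.19 CPM in control members and 895, 1018 and 1535 with rIFNg + rIL-10. The groups were far apart in each replicate (log2 fold change 8.91 ± 0.70 SE, edgeR adjusted p = 2.27e-07). H2-Ab1, a class II beta chain, was at 0.934, 2.88 and 3.19 CPM in control and 229, 224 and 316 with the cytokines (6.99 ± 0.67, edgeR adjusted p = 2.61e-06). H2-Aa, its alpha partner, had 1 UMI in the control sums and 196, 189 and 300 CPM with the cytokines, a ratio of 587 with a counting interval of 105 to 23200. H2-Eb1 rose as well (6.97 ± 0.65). Of the 18 class II genes, 11 passed the filter on low counts and 7 of these rose. Genes near 0 in control, such as these 4, passed the filter through groups where they were high and could hardly fall. The count and the folds and p-values of these 4 genes are therefore descriptions.

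At the level of single cells the response reached nearly all members. After thinning, 98.1% ± 2.0 (SD, n = 3) of cytokine-treated members had Cd74 and 76.9% ± 12.7 had H2-Aa, against 99.7% and 89.3% of the remaining cells of the same wells. In control, 0 members had either after thinning. The level of Cd74 was 1359 ± 316 CPM in cytokine-treated members scoring below 50 and 1050 ± 229 in those scoring 50 or more (SD, n = 3), and within replicates it was 1167 and 897, 1185 and 940, and 1724 and 1314 CPM. Members of low score had the higher level in 3 of 3 replicates, a difference that was not tested.

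MHC class I, which shows peptides from inside the cell, rose from a higher level. H2-D1 was at 185, 220 and 225 CPM in control and 771, 654 and 913 with the cytokines (1.90 ± 0.15, edgeR adjusted p = 3.4e-07). B2m, the light chain shared by class I molecules, was at 240, 209 and 199 CPM and 861, 477 and 782 (1.68 ± 0.15). Of 20 tested class I and peptide-loading genes, 15 rose and 0 fell (median 2.00). H2-K1 and H2-T23 were among them, at 1.77 ± 0.17 and 2.83 ± 0.27.

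The immunoproteasome, which cuts proteins into peptides for class I, moved with it, and 6 of 7 tested genes rose. Its catalytic subunit Psmb8 was at 10.3, 7.69 and 7.98 CPM in control and 428, 236 and 498 with the cytokines (5.37 ± 0.39, edgeR adjusted p = 8.0e-08). Psme1, a subunit of the proteasome activator, was at 141, 151 and 116 CPM and 516, 433 and 535 (1.85 ± 0.13). Psme2 (1.54 ± 0.15) and the assembly factor Pomp (0.49 ± 0.11) rose too.

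Of 94 genes in the list of the IFNg response, 47 passed the filter and 33 of these rose, a count that likewise includes genes near 0 in control. The most abundant were Plac8 (1.37 ± 0.13), the membrane protein Ifitm3, which blocks viral entry (1.88 ± 0.21), Lgals9, which codes for galectin-9 (1.06 ± 0.15), and the tryptophan tRNA ligase Wars (1.92 ± 0.24). Igtp was at 0 in the control sums and 229, 62.0 and 101 CPM with the cytokines, at least 119-fold higher against a floor of 3 counts over the group. Iigp1, another GTPase of this family, was at 675, 254 and 293 CPM, a ratio of 500 with a counting interval of 138 to 4140. Gbp7 (ratio 202), Irgm2 (ratio 56.7), Art2b (ratio 224), Gm50237 (at least 48.1-fold higher) and AW112010 (5.77 ± 0.47) completed the 12 largest rises together with Ido1.

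Ido1, which degrades tryptophan, was at 0 in the control sums and at 475, 22.2 and 12.6 CPM with the cytokines, at least 155-fold higher (edgeR adjusted p = 6.5e-06). The level in replicate 1 was far above that of the others, so the fold rests mostly on it. Ido1 was at 0 in all other groups and passed the filter only through the cytokine group, so its fold and p are descriptions. In single cells it was found in 18.7% ± 25.4 of cytokine-treated members and 0.285% of the remaining cells, and it was at 238 ± 365 CPM in members scoring 50 or more and 6.53 ± 10.3 in those below. Without the replicate block its edgeR adjusted p was 0.0545, and DESeq2 gave 0.545.

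The receptor side was measured as well. Ifngr1 was at 57.9 to 97.3 CPM and Ifngr2 at 24.1 to 72.7 over the 17 sums, and neither passed the test with the cytokines (log2 -0.20 ± 0.20 and -0.51 ± 0.24). Irf1, a transcription factor of the interferon response, rose from 9.34, 12.5 and 20.7 CPM to 237, 92.8 and 122 (3.42 ± 0.34, edgeR adjusted p = 3.6e-06). Of the IL-10 receptor, Il10rb was at 14.0 to 41.5 CPM, and Il10ra, the ligand-binding chain, had 0 UMIs in all 17 sums, which allows up to 0.153 CPM over 19555265 UMIs. In the list of IL-10 and STAT3 genes 1 of 14 rose, the kinase Pim1 (1.40 ± 0.36), and 1 fell, Dmbt1.

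**Figure D3:**
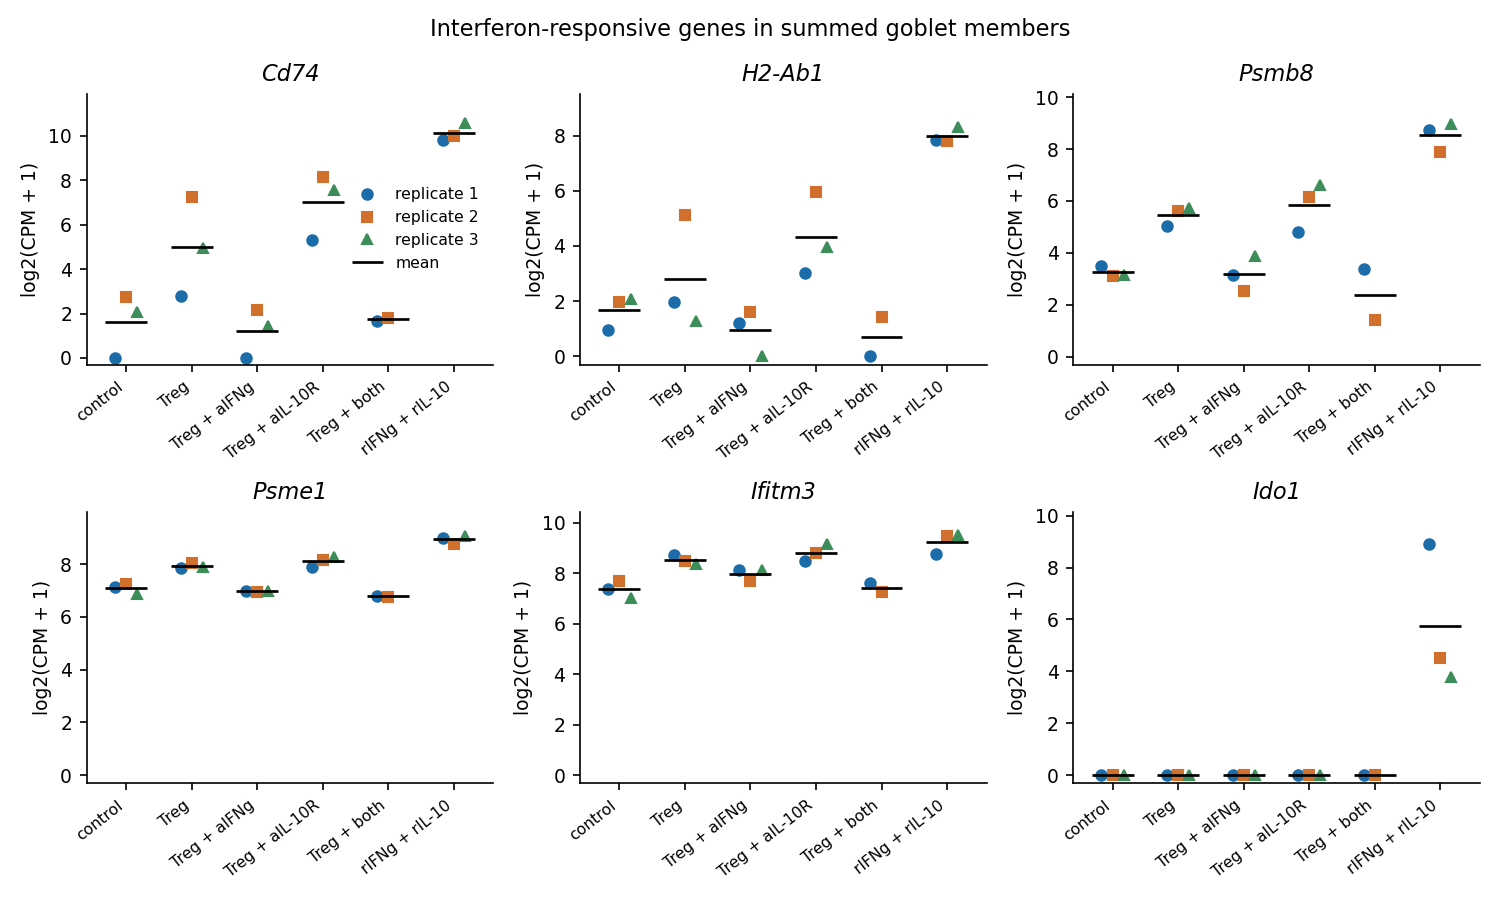
Levels of 6 interferon-responsive genes in summed goblet members, as log2(CPM + 1) (vertical axes), in the 6 groups (horizontal axes); points are replicates and lines their means, with 2 replicates for Treg with both antibodies. The rIFNg + rIL-10 points lie above control for all 6 genes, and Ido1 is above 0 only in that group.

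Some goblet genes outside the rule also rose. Spdef was at 43.0, 27.9 and 60.6 CPM in control members and 131, 78.3 and 149 with rIFNg + rIL-10 (1.45 ± 0.34, edgeR adjusted p = 0.0236). Slc12a8, a membrane transporter, rose by 1.11 ± 0.25 (edgeR adjusted p = 0.016). Kit was at 57.9, 63.4 and 70.2 CPM in control and 137, 122 and 129 with the cytokines (1.02 ± 0.14, edgeR adjusted p = 0.00021). Sct, which codes for secretin, rose by 2.36 ± 0.38 from 37.4, 25.9 and 81.4 to 250, 145 and 307 CPM. It stands in both the mucus and the endocrine list. The endocrine markers together went from 175 ± 78.0 to 484 ± 53.8 CPM (SD, n = 3). That sum includes Sct and the rule genes Chga and Chgb and is a description. The part of endocrine transcripts in the rise of Sct was not tested. The share of members at 50 or more, and so of higher goblet scores, moved with each of these genes, and its part in the result was not tested. In all other kept cells the estimates were 1.76 for Spdef, 0.61 for Slc12a8 and 1.73 for Sct. For Spdef, Slc12a8 and Sct the difference between members and other cells missed the edgeR test.

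The other goblet regulators did not pass the test. Atoh1 was at 44.8, 49.0 and 95.7 CPM in control and 83.3, 95.9 and 99.9 with the cytokines (0.63 ± 0.19, edgeR adjusted p = 0.081). Klf4 (0.72 ± 0.29), Creb3l1 (0.89 ± 0.32), Foxa3 (0.51 ± 0.17) and Spink4 (0.75 ± 0.27) were at higher estimates that missed it, and Zg16 (0.52 ± 1.56), Clca1 (2.73 ± 1.02) and Neurog3 (0.24 ± 0.68) had wide errors. Dll1 was at -0.03 ± 0.20 and Hes1 at -0.91 ± 0.30. In the list of secretory transcription factors 1 of 31 rose, Spdef, and in the Notch list 0 of 19 were called.

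By function, 10 of 57 tested ER and secretory genes rose and 0 fell, with a median of 0.39, among them the translocon subunit Sec61g (0.38 ± 0.08), the ER stress factor Manf (0.70 ± 0.15), Ostc (0.61 ± 0.14) and Sec11c (0.59 ± 0.14). The summed ER list was itself higher at higher scores, as given above. In the fit of members and all other kept cells, the ER list had median changes of 0.37 and 0.41. Of 58 ER genes, 0 passed the test of the difference between them. Of 18 mucus genes 2 rose, the endocrine marker Sct and the membrane mucin Muc3a (1.49 ± 0.38). In mucin glycosylation 2 of 27 rose, Galnt1 (0.62 ± 0.14) and Galnt10 (0.90 ± 0.24), which start O-glycan chains. Of 26 granule and exocytosis genes 5 rose, with Slc12a8, Tspan13 (0.85 ± 0.20) and Kcnma1 (0.94 ± 0.23) the most abundant. The chloride channel Cftr was the only gene of that list to fall, from 149, 124 and 78.2 CPM to 52.2, 43.4 and 21.8 (-1.56 ± 0.22, edgeR adjusted p = 0.00022). Of 54 cell-cycle genes 0 were called (median -0.17).

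Mt2, a metallothionein that binds zinc, was the most abundant of the 12 genes with the largest fall, from 821, 1261 and 842 CPM to 357, 299 and 162 (-1.85 ± 0.24, edgeR adjusted p = 6.8e-05). The early-response gene Fos fell from 166, 291 and 376 CPM to 45.2, 115 and 72.3 (-1.75 ± 0.20). Dmbt1, a secreted scavenger-receptor protein, fell from 263 ± 86.6 CPM to 67.3 ± 21.4 (SD, n = 3; -1.95 ± 0.26). The others were Clca4b (-2.49 ± 0.35), the phosphodiesterase Pde3a (-2.40 ± 0.39), the thyroxine carrier Ttr (-2.30 ± 0.24), the prolactin receptor Prlr (-2.05 ± 0.25), the selenium carrier Selenop (-1.87 ± 0.44), the Wnt receptor Fzd5 (-1.79 ± 0.29), Adh1 (-1.67 ± 0.21), Cd302 (-1.66 ± 0.23) and Tstd1 (-1.64 ± 0.23). In the list of dissociation and heat-shock genes 4 of 15 fell, led by Fos, Egr1 (-1.35 ± 0.21) and Ier2 (-0.66 ± 0.17), and 1 rose, Jund (0.56 ± 0.12).

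**Figure D4:**
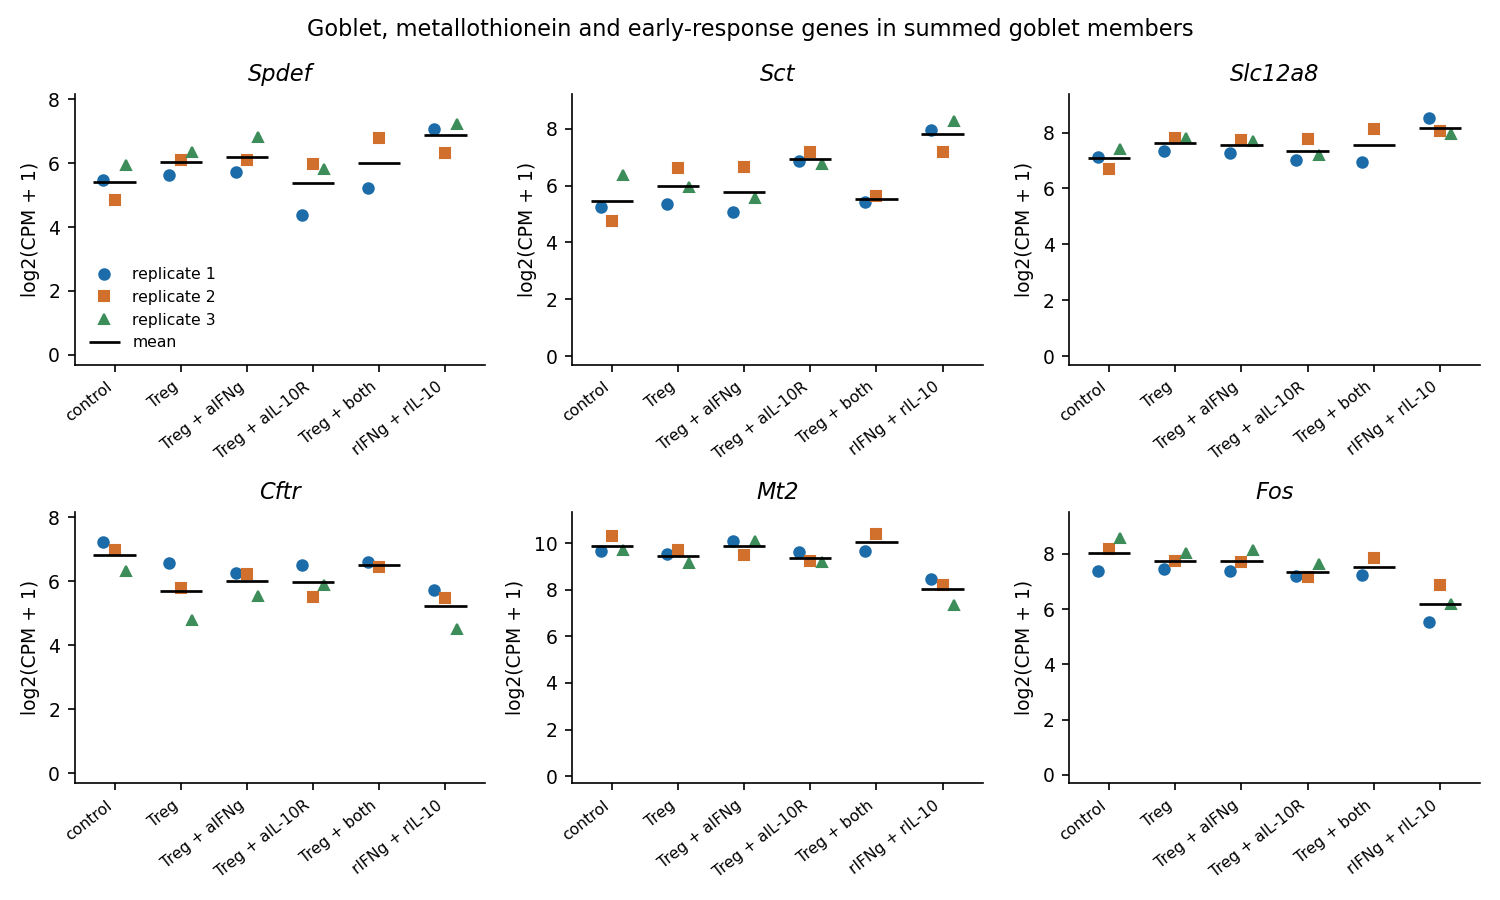
Levels of 6 genes in summed goblet members, as log2(CPM + 1) (vertical axes), in the 6 groups (horizontal axes); points are replicates and lines their means, with 2 replicates for Treg with both antibodies. Spdef, Sct and Slc12a8 are higher, and Cftr, Mt2 and Fos lower, with rIFNg + rIL-10 than in control.

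Other cell types were followed in the same sums. Enterocyte genes summed to 3721 CPM in cytokine replicate 1 and 899 and 940 in the other cytokine replicates, against 1908 ± 496 (SD, n = 3) in control. Of 17 tested enterocyte genes 1 rose, Krt20, and 2 fell, Clca4b and Prap1. Paneth markers summed to 1959 ± 165 CPM with the cytokines and 1101 ± 248 in control. That sum includes rule genes and is a description. Of these, Lyz1 was at 435 ± 234 CPM with the cytokines and 136 ± 59.0 in control. Defa24 was at 395 ± 188 and 220 ± 55.1 CPM. Outside the rule, 1 of 8 tested Paneth genes rose, Nupr1 (2.53 ± 0.46), and in the endocrine list 1 of 8 rose, Sct, as given above. T cell and immune markers stood at 5.73 ± 1.81 and 8.29 ± 4.64 CPM. Among growth and death genes, 1 of 44 mTORC1 and Myc linked genes rose, Hk2 (1.08 ± 0.24), and 1 fell, Odc1 (-0.54 ± 0.12), and the cell-death genes Bak1 (1.06 ± 0.28), Zbp1 (ratio 24.0) and Gsdmd (2.08 ± 0.53) rose. In the stem and progenitor list 1 of 18 fell, Aqp4 (-1.14 ± 0.30), and of 4 tested tuft genes 0 were called. The part of these other cell types in the results was not tested.

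With Treg cells, antigen-presentation genes stood at higher values than in control, but no gene passed the test. Against control, 0 of 9433 genes were called (0%), with 474 at an unadjusted p below 0.05, 10 called by DESeq2 and 16 called without replicate 1. The lowest p belonged to Psme1, which was at 232, 262 and 236 CPM with Treg and 141, 151 and 116 in control. The groups did not overlap, as held for 791 of the 9433 genes (0.83 ± 0.13, edgeR adjusted p = 0.0669). Ifitm3 was at 430, 364 and 335 CPM with Treg and 168, 205 and 129 in control (1.15 ± 0.21, edgeR adjusted p = 0.136). Cd74 was at 5.80, 152 and 29.5 CPM with Treg (4.29 ± 0.87, edgeR adjusted p = 0.136), with replicate 1 close to the control values. Fryl (0.67 ± 0.13) and Ccdc141 (1.65 ± 0.33) were the other genes of lowest p and missed the test likewise. The immunoproteasome list had a median log2 change of 0.83, against 0.00 for all genes, and 0 genes were called in it or in the class II list.

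With anti-IL-10R in the Treg co-culture, these genes had their highest mean levels among the Treg groups. Against control 6 genes rose and 0 fell (0.0636% of those tested). Cd74 was at 38.4, 285 and 187 CPM (5.71 ± 0.78, edgeR adjusted p = 0.0033) and Psmb8 at 26.8, 70.5 and 97.0 CPM, against 10.3, 7.69 and 7.98 in control (2.81 ± 0.45, edgeR adjusted p = 0.0126). Psmb9 (1.90 ± 0.31), Psme2 (0.95 ± 0.15), Psme1 (1.00 ± 0.13) and Ifitm3 (1.43 ± 0.21) were the other 4. All 6 serve antigen processing and presentation or antiviral defence. Cd74, near 0 in control, passed the filter through groups where it was high, so its fold and p are descriptions. Without replicate 1, 22 genes rose and 4 fell, and without replicates 2 and 3 the count was 1 and 0. Treg with and without anti-IL-10R were not compared in a test.

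With anti-IFNg the values of Psme1, Psmb8 and Cd74 lay near those of control. Psme1 was at 127, 124 and 125 CPM, Psmb8 at 7.76, 4.79 and 13.8, and Cd74 at 0, 3.42 and 1.73. Ifitm3 was at 279, 207 and 277 CPM, above the control values of 168, 205 and 129 in each replicate. No gene was called against control (0 of 9433, 0%), with 493 at an unadjusted p below 0.05 and 0 called by DESeq2, and 8 and 1 were called without replicates 1 and 2. The genes of lowest p were Thbs1 (4.71 ± 0.85), Fryl (0.70 ± 0.14), Kit (0.69 ± 0.15), Pbx3 (0.98 ± 0.22) and Rnase4 (0.53 ± 0.12), with edgeR adjusted p from 0.23 to 0.64, and all missed the test.

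Treg with both antibodies had 2 sums of enough members, as replicate 3 held 7 members and was left out. Psme1 was at 110 and 108 CPM, Psmb8 at 9.37 and 1.68 and Cd74 at 2.16 and 2.51. Against control 0 genes were called (0%), with 347 at an unadjusted p below 0.05 and 0 by DESeq2, and 8 and 2 were called without replicates 1 and 2. The lowest p belonged to Thbs1, Cck, Fryl, Clps and Fbp1 (edgeR adjusted p 0.98 to 1.0). Against Treg alone, 1 gene fell, Psme1 (0.0106% of those tested; -1.15 ± 0.15, edgeR adjusted p = 0.0053). Psmb9 (-2.42 ± 0.41), Irf1 (-2.48 ± 0.44), Psme2 (-0.87 ± 0.17) and Psmb8 (-2.74 ± 0.56) had the next lowest p and missed the test. Without replicate 1, 3 genes rose and 3 fell against Treg. Without replicate 2 the fall of Psme1 was lost (-1.07, edgeR adjusted p = 0.498), and 2 other genes rose and 0 fell. It also missed the test at a score minimum of 20 (-1.16, edgeR adjusted p = 0.0702). Leaving out either replicate leaves 1 sum with both antibodies, which is then assumed to vary like the other groups. All comparisons with control share the same 3 control sums.

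Whether goblet members responded to rIFNg + rIL-10 otherwise than the rest of the epithelium was tested as the difference between the change in members and that in all other kept cells of the same wells. It passed for 77 of 14351 genes (0.537%), and the change was more upward in members for 30 and more downward for 47. None of the 83 tested IFNg-response genes was among them, nor any of 23 class I, 14 class II or 9 immunoproteasome genes, and 1606 genes had an unadjusted p below 0.05. The count rested on the replicates and the design, being 134, 7 and 1 without replicates 1, 2 and 3 and 1 without the replicate block. The precision of these genes differed widely. For Psme1 and B2m the difference was -0.03 ± 0.18 and -0.02 ± 0.22 (SE), whereas for Psmb8 it was -0.19 ± 0.98, for Cd74 -0.21 ± 2.31 and for Ido1 4.77 ± 5.11, so that for genes near 0 in control a difference was not detectable at this depth. The other cells are a mixture of types, and members and others come from the same libraries.

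The genes that differed were of other functions. Pde3a was at 41.5 CPM in control members and 7.91 with the cytokines, while other cells had 65.3 and 59.5 (difference -2.25 ± 0.34, edgeR adjusted p = 0.0017). Dmbt1 went from 263 to 67.3 CPM in members and from 451 to 375 in other cells (-1.75 ± 0.29). Gipc2 was at 89.1 and 34.6 CPM in members and 140 and 160 in others (-1.54 ± 0.18, edgeR adjusted p = 0.0001). It was the only named gene that also passed without the replicate block. In the other direction, the ER-phagy receptor Retreg1 was at 12.7 and 30.1 CPM in members and 13.3 and 8.55 in others (1.77 ± 0.36). Krt7, a simple-epithelial keratin, was at 173 and 262 CPM against 61.3 and 43.0 (1.03 ± 0.18), and Foxa3, a goblet transcription factor, at 71.0 and 102 against 25.2 and 19.3 (0.83 ± 0.16). Gcnt3, which branches mucin O-glycans, was at 68.7 and 85.5 CPM against 22.2 and 12.2 (1.11 ± 0.23). The mean score of the members differs between these groups, and its part in these differences was not tested.

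**Figure D5:**
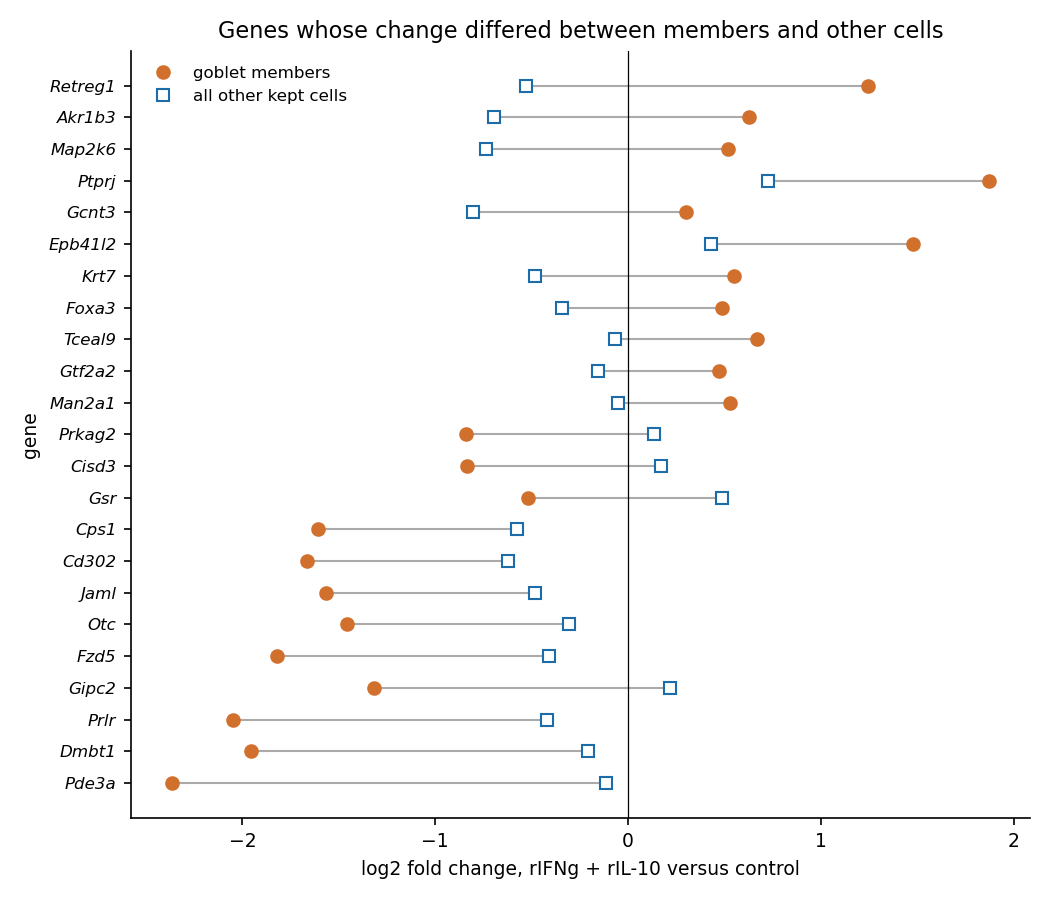
Log2 fold change with rIFNg + rIL-10 against control (horizontal axis) in goblet members (filled circles) and in all other kept cells (open squares) for 23 genes whose change differed between the classes (vertical axis). The widest gaps are those of Pde3a (-2.25) and Retreg1 (1.77).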

How the data were processed

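The UMI counts per gene and cell and the hashtag counts were deposited by the authors, who made them with Cell Ranger 7.0.0 on mm10 (GRCm38) and analysed them with Seurat 4.0.5. Of 6 deposited library pairs, B6 was left out as in the study. Hashtags were called per library in Seurat 5.3.0 (centred log-ratio, quantile 0.99), which gave 24320 singlets of 35985 barcodes and removed 3387 doublets. Doublets within a group, 1.64% to 6.97% of singlets by calculation, cannot be seen by hashtag and were not removed. No doublet caller was run here, whereas the study also excluded doublets found with scDblFinder. Libraries shared 9 to 24 barcodes per pair. Kept cells had between 10000 and 90000 UMIs, between 3000 and 10000 detected genes and no more than 8.5% of UMIs from mitochondrial genes. The share of singlets kept was 39.03% to 41.15% in replicates 1 and 3 and 64.17% to 66.18% in replicate 2, whose median depth per barcode was 23345 and 27317 UMIs against 3485.5 to 4427.

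UMIs were summed over the members of each group and replicate with at least 10 members, giving 17 sums of 585917 to 2245848 UMIs, and tested in edgeR 4.0.16 (R 4.3.3; TMM, filterByExpr, quasi-likelihood test, adjusted p below 0.05) with the replicate as a block, since each replicate's libraries hold every group. Same-replicate sums of different groups deviated together (mean correlation 0.324, -0.083 to 0.632 over 40 pairs and 2982 genes). The mean correlation between other replicates was -0.161. Deviations were taken from each group's mean, so the second value is tied to the first and adds no separate evidence. The study's mixed model (NEBULA) was not installed here, so sums were tested. Whether replicates are separate mice is not stated in the sources used here, so p-values measure the spread between these cultures.

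DESeq2 1.42.0, RLE size factors, no filter, other score minimums, no Paneth and endocrine limits, no replicate block and leaving out each replicate were the alternatives. The score minimum of 50 was added after seeing the data. Members and gene lists were chosen with earlier results of these data known. Genes were named by rule: the 12 largest rises and 12 largest falls of at least 20 CPM with groups that did not overlap, the 5 lowest p where fewer than 5 genes were called, and list members. SE denotes the standard error and SD the standard deviation. The tests were checked on simulated counts. Some genes are not reported here.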

Additional observations from a re-analysis of the deposited data

Results flagged for a closer look

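For 77 genes the change with rIFNg + rIL-10 against control differed between goblet members and all other kept cells (edgeR test of the difference). On the log2 scale the change in members minus that in other cells was 1.77 for Retreg1, 1.32 for Akr1b3, 1.25 for Map2k6, 1.14 for Ptprj, 1.11 for Gcnt3, 1.05 for Epb41l2, 1.03 for Krt7, 0.83 for Foxa3, 0.74 for Tceal9, 0.63 for Gtf2a2 and 0.58 for Man2a1. Of these, Ptprj and Epb41l2 were higher with the cytokines in both classes, and the other 9 had a positive estimate in members and a negative one in other cells.

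The difference was -2.25 for Pde3a, -1.75 for Dmbt1, -1.63 for Prlr, -1.54 for Gipc2, -1.41 for Fzd5, -1.15 for Otc, -1.08 for Jaml, -1.04 for Cd302, -1.03 for Cps1, -1.01 for Gsr, -1.0 for Cisd3 and -0.98 for Prkag2. Gipc2, Gsr, Cisd3 and Prkag2 had a negative estimate in members and a positive one in other cells, and for the other 8 both estimates were negative. Otc and Cps1 code for enzymes of the urea cycle that enterocytes express, and they were at 78.9 and 462 CPM in control members and 27.9 and 143 with the cytokines.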

How the results depend on the processing

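Without the replicate block, 102 genes rose and 46 fell with rIFNg + rIL-10 (148 in all, against 294), 5 rose with anti-IL-10R, and the genes that differed between members and other cells went from 77 to 1. With the low-count filter off, the counts were 649 for the cytokines, 83 for Treg, 34 for Treg with both antibodies against control, 58 with anti-IFNg, 79 with anti-IL-10R, 68 for both antibodies against Treg, and 162 for the difference between classes. DESeq2 called 10 genes for Treg, 5 for both antibodies against Treg and 341 for the difference between classes. Without the Paneth and endocrine limits the cytokine count was 661 and that of both antibodies against Treg 2, and the shares of members differed from control by 7.97 points with the cytokines and 2.10 with anti-IL-10R. At a score minimum of 20, anti-IL-10R had 2 genes and both antibodies against Treg 0. With a score minimum of 5 the share with anti-IFNg was 1.04 points above control, the reverse of -0.06, and that with both antibodies 0.37 above, the reverse of -0.59. Without replicate 3 the latter was 0.57, and the former lay between -0.82 and 0.62 without each replicate in turn.

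At a score minimum of 50 (31 rose and 10 fell, 41 in all, for the cytokines), Treg, both antibodies against control, anti-IFNg and anti-IL-10R had 1 gene each and both antibodies against Treg 0. Control then kept 1 sum of at least 10 members, anti-IFNg, anti-IL-10R and both antibodies 2 each, and Treg and the cytokines 3 each, so calls lost at this minimum say nothing about stability. Leaving out each replicate in turn gave 118 to 235 genes for the cytokines, 0 to 16 for Treg, 0 to 8 for both antibodies, 0 to 8 for anti-IFNg, 0 to 26 for anti-IL-10R, 1 to 6 for both antibodies against Treg (2 rose and 0 fell without replicate 2, so the fall of Psme1 was lost) and 1 to 134 for the difference between classes. Without replicate 3 the cytokine count was 118, and the difference between classes had 7 genes without replicate 2 and 1 without replicate 3. Of 64 named cytokine values, 23 missed the threshold without the block, 10 in DESeq2, and 14, 12 and 23 without replicates 1, 2 and 3. At score minimums of 20 and 50, 19 and 43 missed it, and 10 did without the Paneth and endocrine limits. In these settings 0 changed sign. Where a count changed, the cause was not tested.

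Depth limits these results through 16 to 55 members per sum. Single cells were compared after thinning, and genes near 0 carry ratios with wide counting intervals. With 3 replicates no share can pass an exact test at 0.05.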

Other observations

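Cytokine-treated replicate 1 stood apart in several members' genes outside the interferon lists. Clca1 was at 364 CPM there and at 36.2 and 98.7 in the other cytokine replicates, Zg16 at 2046 against 94.6 and 332, and Fabp1 at 1089 against 105 and 101. Olfm4, the crypt base marker, was at 24.1 CPM in that replicate and at 261 and 161 in the others, while control members had 918, 548 and 212. In control, Zg16 was at 31.8, 1823 and 351 CPM and Clca1 at 0, 2.88 and 104.

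Some genes outside antigen presentation had similar values in all Treg groups. Fryl was at 171, 146 and 121 CPM in control, 281, 219 and 204 with Treg, 265, 194 and 260 with anti-IFNg, 226, 211 and 212 with anti-IL-10R and 248 and 211 with both antibodies. Every Treg value was above every control value, although no Treg comparison passed the test for this gene. Fryl and Ccdc141 were named for low p in comparisons of Treg groups with control, so the separation is a description. Values did not overlap with control for 791 of 9433 genes with Treg and 735 with anti-IFNg. With anti-IL-10R it was 709, and 1512 with both antibodies. With rIFNg + rIL-10 Fryl rose to 380, 249 and 281 CPM (edgeR adjusted p = 7.0e-05). Ccdc141 was at 7.47, 10.6 and 15.9 CPM in control and at 21.6 to 36.8 in the Treg groups.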
